A study of Homo sapiens with 16 samples.

Results

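The 29 genes described here are direct targets of p53, the transcription factor that answers DNA damage and other stress: CDKN1A, BTG2, GADD45A, PLK2, PLK3, GDF15, MDM2, MDM4, PPM1D, CCNG1, BBC3, BAX, PMAIP1, TP53I3, FDXR, SPATA18, TRIAP1, FAS, EDA2R, AEN, PHLDA3, ZMAT3, XPC, DDB2, POLH, RRM2B, SESN1, C12orf5 and TP53INP1. They were chosen by name, with earlier results of these data known. All 29 were among the 23669 genes of the count table, where C12orf5 is the older symbol of TIGAR. Poly(A) RNA was sequenced from HCT116, a human colorectal carcinoma cell line. The 8 groups were HIF1A-null cells, in which the HIF1A gene was deleted (HIF1A-/-), in hypoxia and in normoxia; shCDK8 cells, with a stably expressed short hairpin RNA (shRNA) against CDK8, in hypoxia and in normoxia; shTIP60 cells, with a stable shRNA against TIP60 (gene symbol KAT5), in hypoxia and in normoxia; and shNT cells, with a stable non-targeting shRNA, in hypoxia and in normoxia. Hypoxia was 1% oxygen for 24 h and normoxia was 21% oxygen. Each group had 2 libraries, here called A and B, from independent biological replicates. Each target was altered in 1 line, so the replicates are cultures of that line, while the knockdown or deletion was made once. HIF1A-null cells are set against a line that carries an shRNA, and no shRNA is named for them.

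p53 is kept scarce in unstressed cells by MDM2, a ubiquitin ligase that is itself a p53 target, and stress frees p53 to bind DNA as a tetramer. Its targets stop the cell cycle, above all through the kinase inhibitor p21 (CDKN1A), repair DNA, change metabolism or start apoptosis. HIF1A is the oxygen-regulated subunit of the main hypoxia-inducible factor, CDK8 is a kinase of the Mediator complex, and TIP60 is a histone acetyltransferase that also acetylates p53.

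Library totals ran from 26620086 to 39401494 counts. Values below are CPM, counts scaled by the library total and a trimmed-mean factor, in the order library A, library B. Of the 29 genes, 28 passed the filter on low counts. SPATA18, a mitochondrial quality control gene, did not, with at most 13 counts in a library. EDA2R, a receptor of the tumour necrosis factor receptor family, passed only through the 2 shCDK8 groups. That leaves 27 genes that were measured in all groups. Exonic bases shared with another annotated gene were 25.7% in FAS, 24.6% in XPC, 18.4% in PHLDA3, 18.1% in C12orf5 and 11.1% in MDM2, and the strand setting of the counting is not given in the sources used here, so these counts may hold reads of a neighbour. The epithelial genes EPCAM, KRT8, KRT18 and KRT19 were at 129 CPM or more in every library. CDH1 ranged from 25 to 209 CPM, and VIL1 had at most 11 counts. PTPRC, DCN and PECAM1 were at 0 to 4 counts and LYZ was at 0 to 36 counts. But CD68 and COL1A1, which are listed as markers of macrophages and fibroblasts, reached 117 and 81.9 CPM. The 6 markers of other cell types were also summed as raw counts, which are not scaled by library total. In hypoxia the sum was 2647 and 2661 in HIF1A-null, 4199 and 4414 in shCDK8, 5931 and 6412 in shTIP60 and 3509 and 3285 in shNT. In normoxia it was 1250 to 2248. The part of these markers in the results was not tested.

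The targeted genes were lower in the altered lines, HIF1A much less so in hypoxia. CDK8 was at 5.83 and 5.45 CPM in shCDK8 against 27.9 and 28.3 CPM in shNT in hypoxia, and at 5.77 and 6.80 CPM in shCDK8 against 27.3 and 24.8 CPM in shNT in normoxia. KAT5 was at 22.0 and 21.0 CPM in shTIP60 against 87.5 and 93.5 CPM in shNT in hypoxia, and at 20.2 and 19.1 CPM in shTIP60 against 84.8 and 86.7 CPM in shNT in normoxia. HIF1A was at 40.1 and 57.6 CPM in HIF1A-null against 61.2 and 70.5 CPM in shNT in hypoxia, and at 13.0 and 14.1 CPM in HIF1A-null against 107 and 108 CPM in shNT in normoxia. The groups did not overlap in any of these comparisons, although the hypoxic HIF1A values lay close to each other. HIF1A rose with hypoxia in HIF1A-null (log2 1.85 ± 0.15, adjusted p = 4.91e-07) and fell in shNT (log2 -0.71 ± 0.15, adjusted p = 0.00124), a difference of response of log2 2.56 ± 0.21 (adjusted p = 2.74e-06). A count over the whole gene does not separate reads of a deleted exon from the rest, and which exons were deleted was not given in the sources used here.

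The DNA element that p53 binds is a pair of 10-base repeats. Each repeat has 3 purines, a core of C, A or T, A or T and G, and 3 pyrimidines. A search with both repeats side by side, both cores intact and at most 2 mismatches in the other bases was run within 3000 bases of the start of each gene's main annotated transcript in GRCh37; the pattern reads the same on both strands. It matched near 13 of the 29 genes (44.8%) and near 573 of 20175 protein-coding genes (2.84%). The 29 genes were chosen as direct p53 targets, so the gap between these shares is no independent evidence. The matches below are a selection and belong to genes whose levels are described next. They are written 5′ to 3′ on the strand of the gene, and capitals mark the cores.
CDKN1A, chr6:36644226-36644245, plus strand, 2 mismatches: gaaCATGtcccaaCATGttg
PLK2, chr5:57758101-57758120, minus strand, 0 mismatches: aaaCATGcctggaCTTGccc
GADD45A, chr1:68152458-68152477, plus strand, 1 mismatch: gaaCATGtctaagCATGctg
BTG2, chr1:203272770-203272789, plus strand, 2 mismatches: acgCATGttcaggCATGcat
GDF15, chr19:18496118-18496137, plus strand, 2 mismatches: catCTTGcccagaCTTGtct
AEN, chr15:89164537-89164556, plus strand, 2 mismatches: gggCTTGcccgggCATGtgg
ZMAT3, chr3:178787976-178787995, minus strand, 0 mismatches: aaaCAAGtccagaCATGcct
The CDKN1A match lay 2255 bases before that start (position 36646491) and spanned the first annotated base of the gene, which belongs to a longer transcript, the PLK2 match 2197 bases before it and the BTG2 match 1867 bases before it. The match of GADD45A lay 1583 bases after the start, and that of ZMAT3 also lay after it. Further matches were near CCNG1, EDA2R, FAS, PMAIP1, RRM2B and SPATA18. Of these, CCNG1 and RRM2B each had a match with 1 mismatch but were not called with hypoxia in any line. Whether a match goes with a change in level was not tested. A match is a run of letters and not a measured binding site, and the lack of one near MDM2, BBC3 or PLK3 concerns this window and spacing only.

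With hypoxia, 5 of the 6 growth arrest genes rose in HIF1A-null, 3 in shCDK8, 4 in shTIP60 and all 6 in shNT, and none fell. A gene is called here when its p from edgeR's quasi-likelihood test, adjusted by Benjamini-Hochberg over 15520 genes, was under 0.05. In HIF1A-null cells 13 of the 27 genes measured in all groups rose with hypoxia and 3 fell, where 18.9% of all genes rose and 19.1% fell (38% called). In shCDK8 cells 6 rose and 3 fell, where 13.8% of all genes rose and 11% fell (24.8% called). In shTIP60 cells 7 rose and 4 fell, where 19.4% of all genes rose and 19.8% fell (39.2% called). In shNT cells 11 rose and 4 fell, where 20.7% of all genes rose and 20% fell (40.7% called). The shares of p53 targets called were thus 59.3% in HIF1A-null, 33.3% in shCDK8, 40.7% in shTIP60 and 55.6% in shNT, and the share in shTIP60 was near that of all genes. Over the 27 genes, the median log2 change with hypoxia was 0.56 in HIF1A-null, 0.02 in shCDK8, 0.09 in shTIP60 and 0.38 in shNT. The medians over all genes lay within 0.02 of 0.

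**Figure D1:**
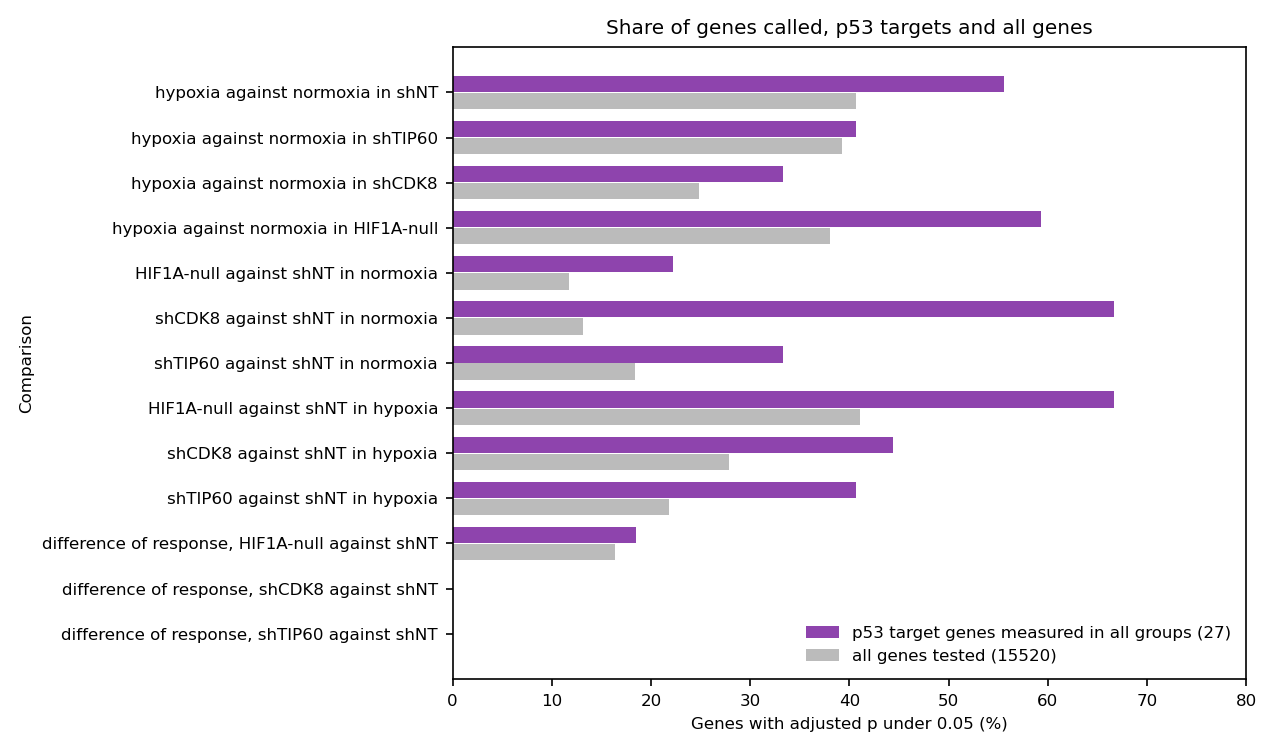
Percent of genes with an adjusted p under 0.05 in each of the 13 comparisons (rows), for the 27 p53 target genes measured in all groups (purple bars) and for all 15520 genes tested (grey bars). The widest gap is in shCDK8 against shNT in normoxia, at 66.7% of the p53 targets and 13.1% of all genes. The p53 targets were chosen with earlier results of these data known.

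Of the 27 genes, 5 rose with hypoxia in all 4 lines: CDKN1A, PLK3, GDF15, BBC3 and DDB2. C12orf5 fell in all 4. GADD45A, POLH and TP53INP1 rose in 3 lines. PMAIP1 rose in HIF1A-null and fell in shCDK8. The genes that passed in no line numbered 7: BAX, CCNG1, FDXR, PHLDA3, RRM2B, SESN1 and XPC. How many of all genes showed the same patterns over the 4 lines was not counted, so these counts have no share beside them. The heat map of hypoxia changes gives all 27.

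**Figure D2:**
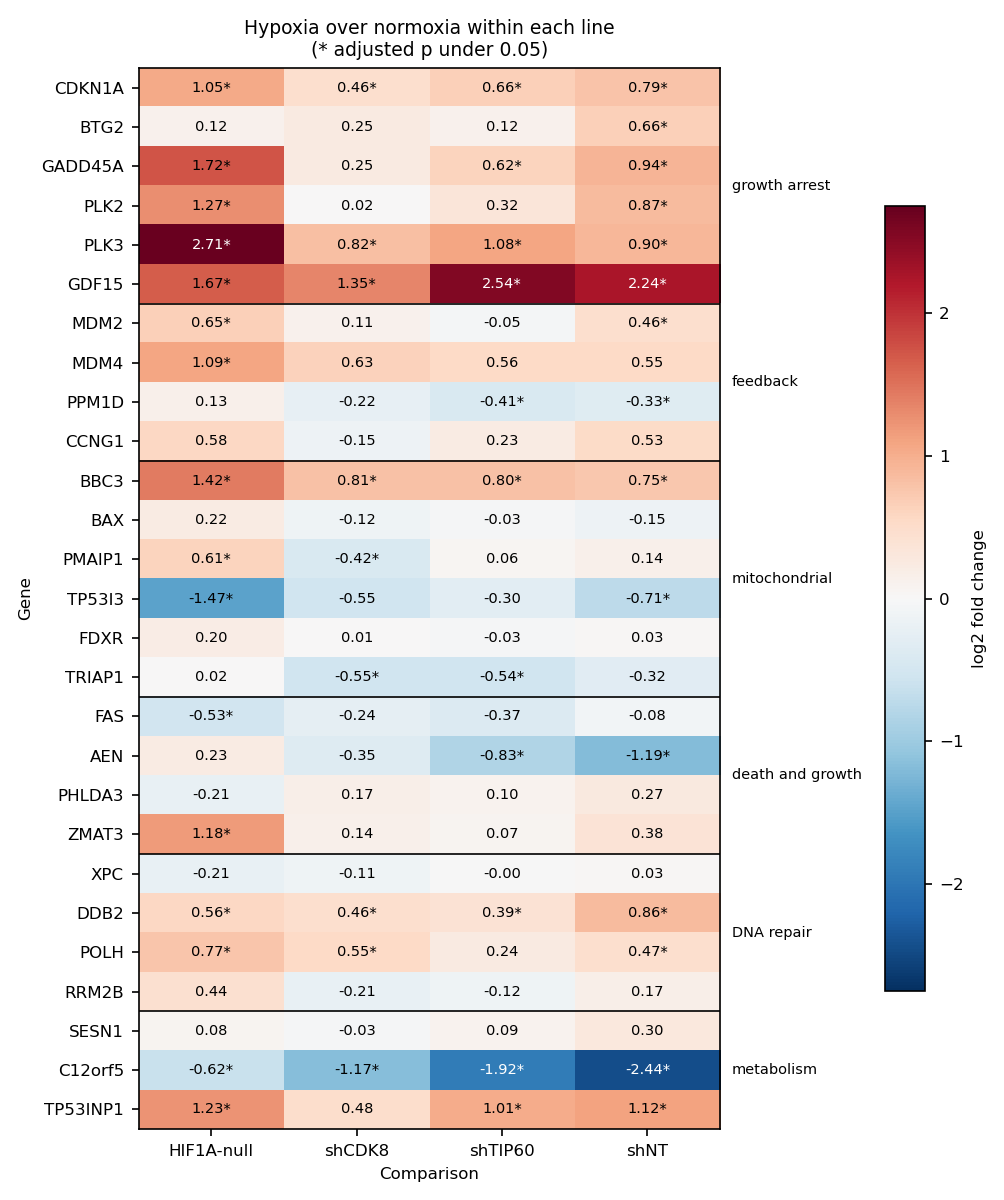
Fitted log2 fold change of hypoxia over normoxia (colour and number) for the 27 p53 target genes measured in all groups (rows, by role) in HIF1A-null, shCDK8, shTIP60 and shNT cells (columns); asterisks mark an adjusted p under 0.05. CDKN1A, PLK3, GDF15, BBC3 and DDB2 are red with an asterisk in all 4 columns and C12orf5 is blue in all 4.

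CDKN1A, which encodes p21 (chr6:36644237-36655114, plus strand, 3 exons), was at 681 and 663 CPM in hypoxia against 346 and 305 CPM in normoxia in HIF1A-null cells. In shCDK8 cells CDKN1A was at 862 and 847 CPM in hypoxia against 658 and 583 CPM in normoxia. In shTIP60 cells CDKN1A was at 564 and 523 CPM in hypoxia against 338 and 351 CPM in normoxia, and in shNT cells at 331 and 322 CPM in hypoxia against 189 and 187 CPM in normoxia. Both hypoxic libraries lay above both normoxic ones in each line, and normoxic shCDK8 cells already exceeded hypoxic shNT cells. The log2 change was 1.05 ± 0.12 (SE) in HIF1A-null, 0.46 ± 0.12 in shCDK8, 0.66 ± 0.12 in shTIP60 and 0.79 ± 0.12 in shNT, with adjusted p of 1.08e-05, 0.0109, 0.000518 and 9.5e-05. The shCDK8 call was lost without shCDK8 normoxia library B or either shCDK8 hypoxia library (adjusted p up to 0.0831), and with library totals as the only scaling or a fit of the 2 groups alone (up to 0.0616).

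GDF15, a secreted stress cytokine that p53 induces (chr19:18485541-18499986, plus strand, 2 exons), had a large rise. In HIF1A-null cells GDF15 was at 668 and 674 CPM in hypoxia against 207 and 215 CPM in normoxia, and in shCDK8 cells at 487 and 464 CPM in hypoxia against 195 and 177 CPM in normoxia. In shTIP60 cells GDF15 was at 831 and 818 CPM in hypoxia against 135 and 149 CPM in normoxia, and in shNT cells at 401 and 456 CPM in hypoxia against 82.9 and 98.7 CPM in normoxia. All hypoxic libraries lay above all normoxic ones, across lines as well as within them. The log2 changes were 1.67 ± 0.13 in HIF1A-null, 1.35 ± 0.13 in shCDK8, 2.54 ± 0.14 in shTIP60 and 2.24 ± 0.13 in shNT, with adjusted p of 2.74e-06 at most.

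PLK3, a stress-activated polo-like kinase (chr1:45266049-45271662, plus strand, 15 exons), was at 368 and 385 CPM in hypoxia against 57.2 and 57.7 CPM in normoxia in HIF1A-null cells. In the other lines PLK3 was at 78.1 and 89.7 CPM in hypoxia against 49.2 and 46.0 CPM in normoxia in shCDK8, at 84.3 and 78.4 CPM in hypoxia against 37.5 and 39.6 CPM in normoxia in shTIP60, and at 75.7 and 63.8 CPM in hypoxia against 36.6 and 37.9 CPM in normoxia in shNT. The groups did not overlap in any line, and the hypoxic HIF1A-null libraries stood above every other library. GADD45A, a growth arrest and DNA damage gene, was at 147 and 177 CPM in hypoxia against 52.0 and 45.9 CPM in normoxia in HIF1A-null cells, and at 94.9 and 96.5 CPM in hypoxia against 53.1 and 47.1 CPM in normoxia in shNT. PLK2, another polo-like kinase, rose in HIF1A-null (log2 1.27 ± 0.16, adjusted p = 2.63e-05) and in shNT (log2 0.87 ± 0.16, adjusted p = 0.000532), while its log2 change was 0.02 in shCDK8 and 0.32 in shTIP60. BTG2, an antiproliferative cofactor, rose in shNT alone among the calls (log2 0.66 ± 0.13, adjusted p = 0.001), with a log2 change of 0.12 in HIF1A-null.

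**Figure D3:**
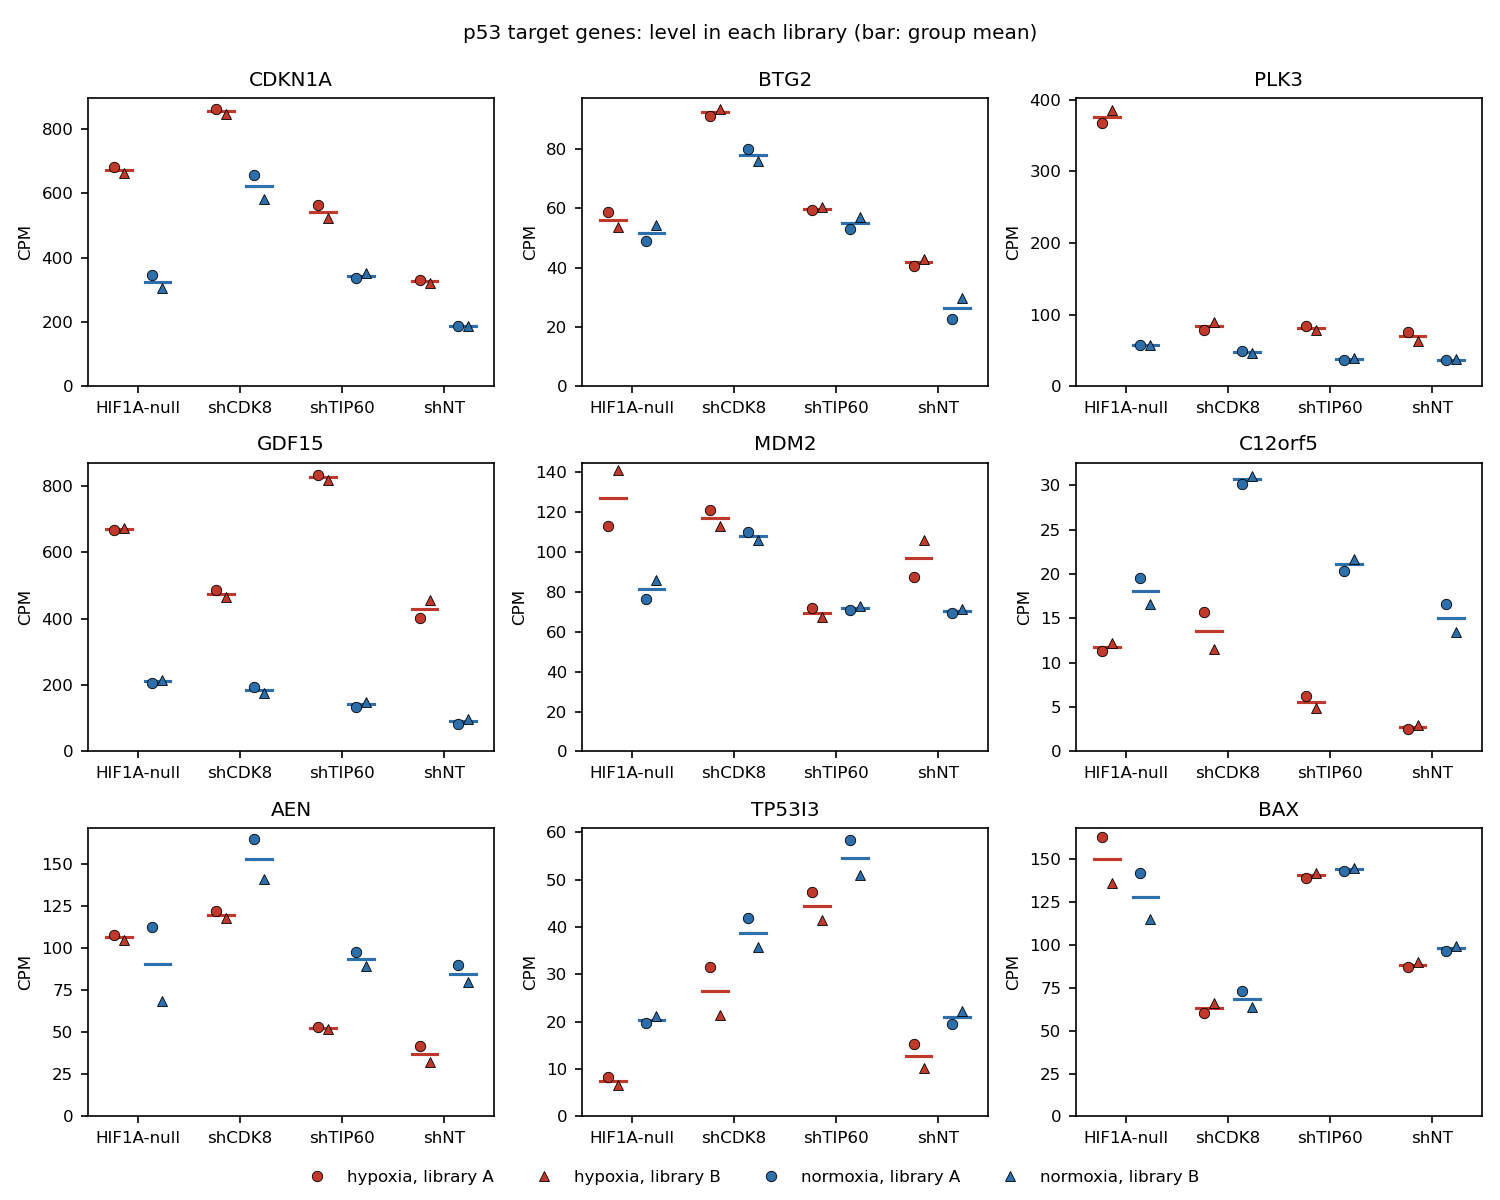
CPM of 9 p53 target genes (panels) in each library, for HIF1A-null, shCDK8, shTIP60 and shNT cells from left to right, in hypoxia (red) and normoxia (blue); circles are library A, triangles library B and bars group means (n = 2). PLK3 stands at 368 and 385 CPM in hypoxic HIF1A-null cells, and C12orf5 at 2.52 and 3.01 CPM in hypoxic shNT cells.

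Among the genes that restrain p53, MDM2 was at 113 and 141 CPM in hypoxia against 76.5 and 86.0 CPM in normoxia in HIF1A-null cells, and at 87.7 and 106 CPM in hypoxia against 69.6 and 71.6 CPM in normoxia in shNT cells. The hypoxic libraries were higher in both lines without overlap (log2 0.65 ± 0.13 with adjusted p = 0.00132, and 0.46 ± 0.13 with adjusted p = 0.0118). The MDM2 log2 change was 0.11 in shCDK8 and -0.05 in shTIP60, not called. MDM4, a relative of MDM2 that blocks p53 activity, rose in HIF1A-null (log2 1.09 ± 0.24, adjusted p = 0.00196), where library B alone was at 84.1 CPM and library A at 46.4 CPM; the call was lost without HIF1A-null hypoxia library B (adjusted p = 0.0572). PPM1D, a phosphatase that turns p53 signalling off, fell in shTIP60 (log2 -0.41 ± 0.11, adjusted p = 0.00905) and in shNT (log2 -0.33 ± 0.11, adjusted p = 0.027).

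Of the mitochondrial death genes, BBC3, which encodes PUMA, was at 166 and 148 CPM in hypoxia against 50.3 and 66.8 CPM in normoxia in HIF1A-null cells and at 118 and 111 CPM in hypoxia against 68.3 and 62.1 CPM in normoxia in shCDK8. BBC3 was at 98.5 and 99.2 CPM in hypoxia against 54.7 and 59.1 CPM in normoxia in shTIP60, and at 59.1 and 54.9 CPM in hypoxia against 27.2 and 40.4 CPM in normoxia in shNT. The groups did not overlap in any line, and the log2 changes were 1.42 ± 0.17 in HIF1A-null, 0.81 ± 0.17 in shCDK8, 0.80 ± 0.17 in shTIP60 and 0.75 ± 0.17 in shNT. BAX, the pore-forming protein, did not pass, with log2 changes of 0.22, -0.12, -0.03 and -0.15 in those lines. PMAIP1, which encodes NOXA, rose in HIF1A-null (log2 0.61 ± 0.12, adjusted p = 0.00129) and fell in shCDK8 (log2 -0.42 ± 0.12, adjusted p = 0.0222). TP53I3, an oxidoreductase, was at 8.25 and 6.53 CPM in hypoxia against 19.7 and 21.1 CPM in normoxia in HIF1A-null cells, and fell there (log2 -1.47 ± 0.21, adjusted p = 8.02e-05) and in shNT (log2 -0.71 ± 0.21, adjusted p = 0.0116). TRIAP1, an inhibitor of apoptosis, fell in shCDK8 (log2 -0.55 ± 0.14) and in shTIP60 (log2 -0.54 ± 0.14).

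The death receptor FAS fell with hypoxia in HIF1A-null (log2 -0.53 ± 0.17, adjusted p = 0.021). AEN, an apoptosis-enhancing nuclease (chr15:89164568-89175512, plus strand, 4 exons), was at 108 and 105 CPM in hypoxia against 113 and 68.5 CPM in normoxia in HIF1A-null cells, where the groups overlapped. In shNT cells AEN was at 41.9 and 32.4 CPM in hypoxia against 90.2 and 79.7 CPM in normoxia, and in shTIP60 at 53.4 and 52.0 CPM in hypoxia against 97.8 and 89.4 CPM in normoxia. AEN thus fell in shNT (log2 -1.19 ± 0.19, adjusted p = 0.000128) and in shTIP60 (log2 -0.83 ± 0.19, adjusted p = 0.00236). ZMAT3, an RNA-binding growth regulator, rose in HIF1A-null (log2 1.18 ± 0.24, adjusted p = 0.00145).

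Of the DNA repair genes, DDB2, the damage-recognition subunit of nucleotide excision repair, was at 134 and 130 CPM in hypoxia against 96.3 and 82.6 CPM in normoxia in HIF1A-null cells, and at 129 and 140 CPM in hypoxia against 73.5 and 74.7 CPM in normoxia in shNT. The DDB2 log2 change was 0.56 ± 0.11 in HIF1A-null, 0.46 ± 0.11 in shCDK8, 0.39 ± 0.11 in shTIP60 and 0.86 ± 0.11 in shNT. POLH, a translesion polymerase, rose in HIF1A-null (log2 0.77 ± 0.15), shCDK8 (0.55 ± 0.15) and shNT (0.47 ± 0.15). XPC and RRM2B, a damage sensor and a ribonucleotide reductase subunit, did not pass in any line.

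C12orf5 (TIGAR), a fructose bisphosphatase that slows glycolysis, is annotated at chr12:4416929-4469194 on the plus strand, with 6 exons in its main transcript. It fell more than any other of the 27 genes in shNT. C12orf5 was at 11.3 and 12.2 CPM in hypoxia against 19.6 and 16.6 CPM in normoxia in HIF1A-null cells, and at 15.7 and 11.5 CPM in hypoxia against 30.2 and 31.1 CPM in normoxia in shCDK8. In shTIP60 it was at 6.23 and 4.87 CPM in hypoxia against 20.4 and 21.7 CPM in normoxia, and in shNT at 2.52 and 3.01 CPM in hypoxia against 16.6 and 13.5 CPM in normoxia. The hypoxic libraries lay below the normoxic ones in every line, least far in HIF1A-null. The log2 changes were -0.62 ± 0.18, -1.17 ± 0.18, -1.92 ± 0.19 and -2.44 ± 0.20 in HIF1A-null, shCDK8, shTIP60 and shNT, with adjusted p of 0.0124, 0.00024, 1.71e-06 and 2.85e-07. TP53INP1, a stress-induced autophagy and p53 cofactor, rose in HIF1A-null (log2 1.23 ± 0.32), shTIP60 (1.01 ± 0.32) and shNT (1.12 ± 0.32). SESN1, an antioxidant regulator, did not pass in any line.

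Several of these hypoxia calls rested on single libraries. In HIF1A-null, C12orf5 was lost without normoxia library A or hypoxia library A (adjusted p up to 0.0729), FAS without normoxia library B or hypoxia library B (up to 0.17), and TP53INP1 without normoxia library A or hypoxia library B (up to 0.12). In shCDK8, PMAIP1 was lost without normoxia library B or either hypoxia library (up to 0.207), POLH without library B of either oxygen level (up to 0.154), TRIAP1 without normoxia library B or hypoxia library A (up to 0.0694), and DDB2 without hypoxia library B (0.0751). In shTIP60, DDB2 was lost without any 1 of the 4 libraries (up to 0.0914), PPM1D without normoxia library B or either hypoxia library (up to 0.0664), TP53INP1 without normoxia library A or either hypoxia library (up to 0.144), and TRIAP1 without hypoxia library A (0.0835). In shNT, PPM1D was lost without any 1 of the 4 libraries (up to 0.148), POLH without either normoxia library or hypoxia library B (up to 0.244), MDM2 and TP53INP1 without normoxia library A or hypoxia library B (up to 0.137 and 0.158), TP53I3 without library B of either oxygen level (up to 0.15), and BBC3 without normoxia library A (0.0509). Calls for 12 of 16 genes in HIF1A-null, 4 of 9 in shCDK8, 7 of 11 in shTIP60 and 9 of 15 in shNT stood in every removal. With library totals as the only scaling, which put the median hypoxia change of all genes at log2 -0.28 to -0.16, PMAIP1 in HIF1A-null, POLH in shCDK8, DDB2 and TP53INP1 in shTIP60 and MDM2 and POLH in shNT were lost (adjusted p up to 0.218). DDB2 in HIF1A-null was lost with a fit of the 2 groups alone (adjusted p = 0.0544).

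HIF1A-null cells were next set against shNT cells. In hypoxia 16 of the 27 genes were higher and 2 lower, where 20.3% of all genes were higher and 20.8% lower (41.1% called). In normoxia 6 were higher and 0 lower, where 5.86% of all genes were higher and 5.86% lower (11.7% called). All comparisons of a line with shNT at 1 oxygen level share the shNT libraries. In hypoxia, PLK3 was at 368 and 385 CPM in HIF1A-null against 75.7 and 63.8 CPM in shNT (log2 2.43 ± 0.13, adjusted p = 1.55e-09), and C12orf5 at 11.3 and 12.2 CPM in HIF1A-null against 2.52 and 3.01 CPM in shNT (log2 2.09 ± 0.20, adjusted p = 1.14e-06). AEN was at 108 and 105 CPM in HIF1A-null against 41.9 and 32.4 CPM in shNT (log2 1.52 ± 0.19, adjusted p = 1.36e-05), and BBC3 at 166 and 148 CPM in HIF1A-null against 59.1 and 54.9 CPM in shNT (log2 1.46 ± 0.17, adjusted p = 6.81e-06). CDKN1A was higher by log2 1.04 ± 0.12 in hypoxia and 0.79 ± 0.12 in normoxia. The groups did not overlap for any of these genes. BAX, at 163 and 136 CPM in hypoxic HIF1A-null cells against 87.2 and 89.8 CPM in shNT, FDXR, a mitochondrial reductase, and PPM1D were also higher in hypoxia (log2 0.76 ± 0.13, 0.86 ± 0.14 and 0.71 ± 0.11). TP53I3 and FAS were the 2 genes lower in HIF1A-null in hypoxia (log2 -0.79 ± 0.22 and -0.67 ± 0.17).

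In normoxia the 6 genes higher in HIF1A-null were GDF15 (log2 1.22 ± 0.13), BTG2 (0.97 ± 0.13), CDKN1A, BBC3 (0.79 ± 0.17), FDXR (0.69 ± 0.14) and PLK3 (0.62 ± 0.12). The BBC3 call was lost without shNT normoxia library A or HIF1A-null normoxia library B (adjusted p up to 0.0933). In hypoxia, 7 calls were lost in at least 1 removal: BTG2 and PLK2 without library A of either line (adjusted p up to 0.0891 and 0.225), FAS without library B of either line (up to 0.0663), and MDM2, RRM2B, TP53I3 and ZMAT3 without shNT hypoxia library A or HIF1A-null hypoxia library B (up to 0.26, 0.441, 0.129 and 0.248). PMAIP1, higher in hypoxia (log2 0.44 ± 0.12), was lost with library totals as the scaling and with a fit of the 2 groups alone (adjusted p up to 0.0796).

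In normoxia most of the list was higher in shCDK8 than in shNT. There 17 of the 27 genes measured in all groups were called higher and 1 lower, where 5.8% of all genes were higher and 7.27% lower (13.1% called). In hypoxia 11 were higher and 1 lower, where 14.4% of all genes were higher and 13.4% lower (27.9% called). Over the 27 genes the median log2 difference was 0.34 in hypoxia and 0.61 in normoxia. The difference in normoxia ran across the roles: 5 of 6 growth arrest genes, 3 of 4 death receptor and growth genes, 3 of 6 mitochondrial genes, 3 of 4 repair genes and 2 of 3 metabolic genes were higher, but only 1 of 4 feedback genes, MDM2.

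In normoxia CDKN1A was at 658 and 583 CPM in shCDK8 against 189 and 187 CPM in shNT (log2 1.72 ± 0.12, adjusted p = 1.24e-07). PLK2 was at 348 and 365 CPM in shCDK8 against 82.8 and 105 CPM in shNT (log2 1.92 ± 0.17, adjusted p = 1.07e-06), and BTG2 at 79.8 and 76.0 CPM in shCDK8 against 22.7 and 29.9 CPM in shNT (log2 1.56 ± 0.14, adjusted p = 1.07e-06). All 3 genes had shCDK8 libraries at more than the highest shNT library. GDF15 (log2 1.04 ± 0.13), C12orf5 (1.03 ± 0.18), BBC3 (0.95 ± 0.17), PHLDA3, an inhibitor of AKT signalling (0.93 ± 0.19), GADD45A (0.66 ± 0.13) and MDM2 (0.61 ± 0.13) were also higher and kept their calls in every removal. BAX was the gene that was lower, at 73.4 and 63.8 CPM in shCDK8 against 96.7 and 99.2 CPM in shNT (log2 -0.51 ± 0.13, adjusted p = 0.0159).

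EDA2R had 0 counts in every shNT library at either oxygen level. It had 76 counts over the shCDK8 group in hypoxia, which puts it at least 20.7-fold higher in shCDK8 than in shNT when shNT is set at a floor of 3 counts over the group. In normoxia it had 114 counts in shCDK8, at least 45.7-fold higher than in shNT by the same floor. Its level was low, at 1.05 and 1.04 CPM in hypoxic and 1.58 and 2.06 CPM in normoxic shCDK8 cells, and at most 0.101 CPM in any library of the other lines. EDA2R passed the filter on low counts only through the shCDK8 groups, so it is left out of the counts unless it is named as counted.

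In hypoxia C12orf5 was at 15.7 and 11.5 CPM in shCDK8 against 2.52 and 3.01 CPM in shNT (log2 2.30 ± 0.20, adjusted p = 9.49e-07). AEN was at 122 and 118 CPM in shCDK8 against 41.9 and 32.4 CPM in shNT (log2 1.69 ± 0.19, adjusted p = 1.14e-05). CDKN1A (log2 1.39 ± 0.12), BTG2 (1.14 ± 0.13), PLK2 (1.07 ± 0.16), TP53I3 (1.05 ± 0.21) and BBC3 (1.01 ± 0.17) were higher as well, and these 7 kept their calls in every removal. BAX was lower again, at 60.4 and 66.2 CPM in shCDK8 against 87.2 and 89.8 CPM in shNT (log2 -0.48 ± 0.13, adjusted p = 0.013).

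In normoxia, leaving out shNT library A reduced the calls between shCDK8 and shNT to 10. FAS and TP53I3 were lost without that library or a shCDK8 library (FAS either one, TP53I3 library A; adjusted p up to 0.191 and 0.0763), and XPC without it alone (0.0746). AEN was lost without shNT library B (0.0645), and DDB2 without any 1 of the 4 (up to 0.193). BAX, SESN1 and TRIAP1 were lost without either shNT library or shCDK8 library B (up to 0.133, 0.0905 and 0.135), and POLH without either shNT library or shCDK8 library A (up to 0.146). In hypoxia BAX and PHLDA3 were lost without shNT library B or shCDK8 library A (up to 0.121 and 0.0718), POLH without shNT library A or shCDK8 library B (up to 0.0671), PPM1D without any 1 of the 4 (up to 0.182), and XPC without shNT library B or either shCDK8 library (up to 0.166).

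**Figure D4:**
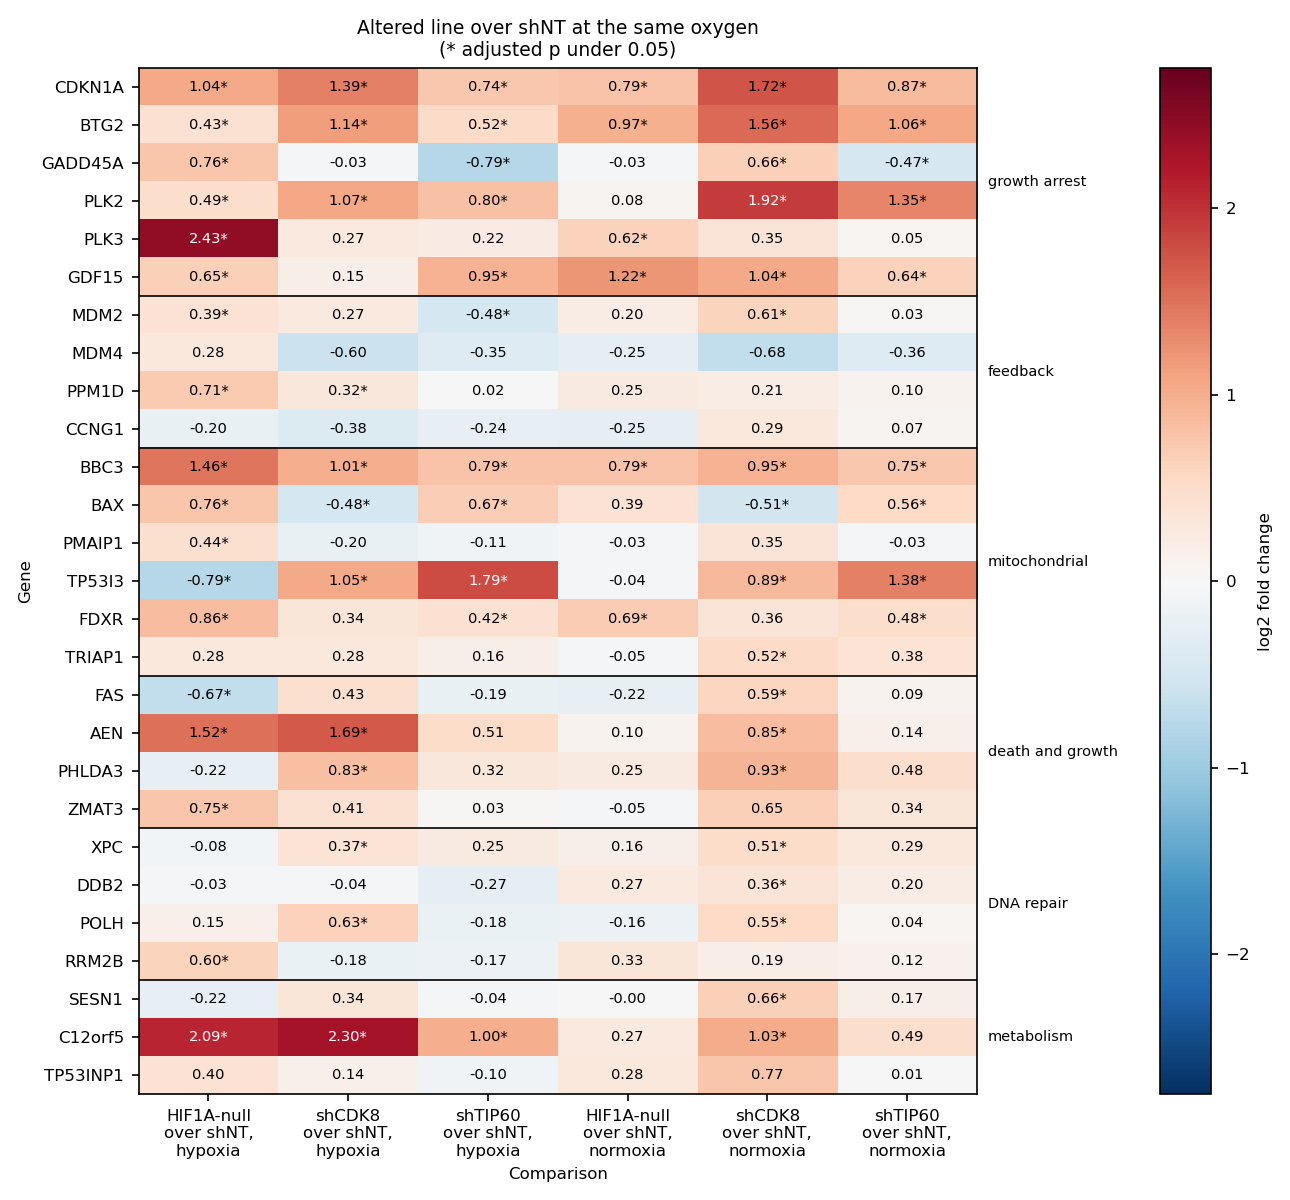
Fitted log2 fold change of HIF1A-null, shCDK8 and shTIP60 cells over shNT cells (colour and number), in hypoxia (left 3 columns) and in normoxia (right 3 columns), for the 27 p53 target genes measured in all groups; asterisks mark an adjusted p under 0.05. CDKN1A, BTG2 and BBC3 are higher with an asterisk in all 6 columns, and BAX is lower in the 2 shCDK8 columns.

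In shTIP60 cells TP53I3, PLK2, BTG2, CDKN1A, BAX, GDF15, BBC3 and FDXR were higher than in shNT and GADD45A was lower, at both oxygen levels. In hypoxia 9 of the 27 genes were higher in shTIP60 than in shNT and 2 lower, where 11.3% of all genes were higher and 10.5% lower (21.8% called). In normoxia 8 were higher and 1 lower, where 10.3% of all genes were higher and 8.13% lower (18.4% called). TP53I3 was at 47.3 and 41.5 CPM in shTIP60 against 15.3 and 10.3 CPM in shNT in hypoxia (log2 1.79 ± 0.21, adjusted p = 1.52e-05), and at 58.3 and 51.0 CPM in shTIP60 against 19.6 and 22.3 CPM in shNT in normoxia (log2 1.38 ± 0.20, adjusted p = 0.000157). BAX was at 139 and 142 CPM in shTIP60 against 87.2 and 89.8 CPM in shNT in hypoxia (log2 0.67 ± 0.13, adjusted p = 0.00188), and at 143 and 145 CPM in shTIP60 against 96.7 and 99.2 CPM in shNT in normoxia (log2 0.56 ± 0.13, adjusted p = 0.00768). Both genes were higher in shTIP60 without overlap at either oxygen level.

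PLK2 was higher in shTIP60 by log2 0.80 ± 0.16 in hypoxia and 1.35 ± 0.16 in normoxia, and CDKN1A by 0.74 ± 0.12 and 0.87 ± 0.12. GADD45A was at 52.6 and 58.4 CPM in shTIP60 against 94.9 and 96.5 CPM in shNT in hypoxia (log2 -0.79 ± 0.13, adjusted p = 0.000363), and at 37.6 and 34.6 CPM in shTIP60 against 53.1 and 47.1 CPM in shNT in normoxia (log2 -0.47 ± 0.13, adjusted p = 0.0165). MDM2 was lower in hypoxia, at 71.9 and 67.3 CPM in shTIP60 against 87.7 and 106 CPM in shNT (log2 -0.48 ± 0.13, adjusted p = 0.0171). C12orf5 was higher in hypoxia (log2 1.00 ± 0.21, adjusted p = 0.00251).

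Without shNT normoxia library A the normoxia calls between shTIP60 and shNT went down to 4, and without shTIP60 normoxia library B to 5. BAX and BBC3 were lost without either of those (adjusted p up to 0.0659 and 0.0989), GDF15 without the shNT library alone (0.0526), GADD45A without it or either shTIP60 library (up to 0.153), and FDXR without any 1 of the 4 (up to 0.151). In hypoxia BTG2 was lost without shNT library A or either shTIP60 library (up to 0.069), and FDXR and MDM2 without shNT library B or either shTIP60 library (up to 0.3 and 0.19).

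The hypoxia response itself was compared between each altered line and shNT with an interaction term. In HIF1A-null cells 4 of the 27 genes had a higher response and 1 a lower one, where 7.53% of all genes had a higher and 8.92% a lower response (16.4% called). The share of the 27 genes called was 18.5%, near that of all genes. The response of PLK3 was higher by log2 1.81 ± 0.17 (adjusted p = 9.8e-06), that of C12orf5 by 1.82 ± 0.27 (adjusted p = 0.000431), that of AEN by 1.43 ± 0.26 (adjusted p = 0.00207) and that of GADD45A by 0.79 ± 0.18 (adjusted p = 0.00772). PLK3 and GADD45A rose more in HIF1A-null than in shNT, C12orf5 fell less, and AEN fell in shNT while its change of log2 0.23 in HIF1A-null was not called. The response of GDF15 was lower in HIF1A-null, with a log2 difference of -0.57 ± 0.18 (adjusted p = 0.0437). That call was lost without shNT normoxia library A, HIF1A-null normoxia library B, shNT hypoxia library B or either HIF1A-null hypoxia library (adjusted p up to 0.195), and the other 4 stood in every removal. With a fit of the 4 groups alone GADD45A was lost as well (adjusted p = 0.056).

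**Figure D5:**
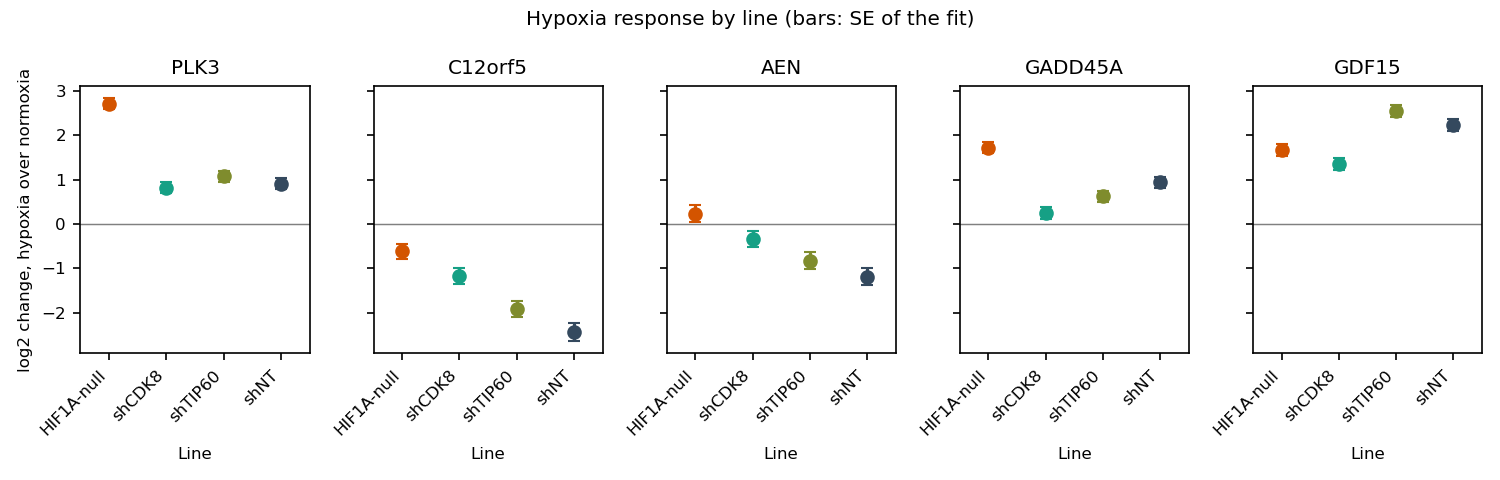
Log2 change of hypoxia over normoxia (points, with the SE of the fit) of the 5 p53 target genes whose response differed between HIF1A-null and shNT cells, in all 4 lines. PLK3 is at 2.71 in HIF1A-null against 0.90 in shNT, and C12orf5 at -0.62 against -2.44.

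Between shCDK8 and shNT no response difference passed among the 27 genes. Over all genes 0.00644% had a higher and 0.0322% a lower response (0.0387% called). Of the 27 genes 8 had an unadjusted p under 0.05 in edgeR, but the share of all genes at that unadjusted threshold was not counted. The C12orf5 response was higher in shCDK8 by log2 1.27 ± 0.27 (adjusted p = 0.0958) and that of GDF15 lower, at -0.88 ± 0.18 (adjusted p = 0.0923). With DESeq2, 4 response differences passed: C12orf5, GADD45A, GDF15 and PLK2. With library series as a term, chosen after seeing the data, these 4, AEN and PMAIP1 passed (adjusted p of 0.00532 to 0.0482), and with no filter on low counts AEN, C12orf5, GDF15 and PLK2. No share of all genes under these other settings is given beside these calls. Between shTIP60 and shNT none passed either, where 0.00644% of all genes had a higher and 0.0258% a lower response (0.0322% called). Of the 27 genes 4 had an unadjusted p under 0.05, again with no share of all genes counted, and DESeq2 called none.

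Other genes of the p53 network were read from lists beside the 29, which were also chosen with earlier results of these data known. Of 39 further p53 targets, 10 rose and 6 fell with hypoxia in HIF1A-null cells, 9 rose and 6 fell in shCDK8, 16 rose and 7 fell in shTIP60, and 14 rose and 8 fell in shNT. That is 41% called in HIF1A-null, 38.5% in shCDK8, 59% in shTIP60 and 56.4% in shNT, beside 38%, 24.8%, 39.2% and 40.7% of all genes in the same lines. TGFA, a growth factor, rose by log2 2.13 ± 0.14 in shNT and 1.33 ± 0.14 in shCDK8. SESN2, a sestrin, rose by log2 2.38 ± 0.17 in HIF1A-null, and its response was higher there than in shNT by 1.88 ± 0.23 (adjusted p = 9.65e-05). TNFRSF10B, a death receptor, rose by log2 1.30 ± 0.12 in HIF1A-null and 0.85 ± 0.11 in shTIP60. In normoxia 13 of the 39 were higher and 3 lower in shCDK8 than in shNT (41% called, beside 13.1% of all genes), among them the decoy receptor TNFRSF10C (log2 1.02 ± 0.18), while PERP, an epithelial adhesion and death effector, was lower (log2 -0.84 ± 0.15).

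Of 24 regulators of p53, 3 rose and 2 fell with hypoxia in HIF1A-null, 1 rose and 2 fell in shCDK8, 4 rose and 5 fell in shTIP60, and 2 rose and 4 fell in shNT. Their shares called were 20.8% in HIF1A-null, 12.5% in shCDK8, 37.5% in shTIP60 and 25% in shNT. The shares of all genes in the same lines were 38%, 24.8%, 39.2% and 40.7%. In shTIP60 the share of regulators was thus near that of all genes, and in the other lines it was lower. PPP1R13L, an inhibitor of p53, rose by log2 2.03 ± 0.15 in shCDK8, 1.91 ± 0.15 in shTIP60 and 1.81 ± 0.15 in shNT, and its response was lower in HIF1A-null than in shNT, with a log2 difference of -1.58 ± 0.21 (adjusted p = 0.000189). ATR and CHEK1, kinases of the replication checkpoint, fell in shNT (log2 -1.14 ± 0.18 and -0.90 ± 0.15). Of 20 genes that p53 and p21 are known to repress, 5 rose and 2 fell in HIF1A-null, 0 rose and 1 fell in shCDK8, 0 rose and 14 fell in shTIP60, and 0 rose and 9 fell in shNT. Their shares called were 35% in HIF1A-null, 5% in shCDK8, 70% in shTIP60 and 45% in shNT, beside the same shares of all genes as above. E2F1, a transcription factor of S phase entry, and MCM5, a helicase subunit, fell in shNT (log2 -1.88 ± 0.28 and -1.48 ± 0.23).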

How the data were processed

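Poly(A) RNA of 16 HCT116 libraries (8 groups of 2) was sequenced on an Ion Torrent Proton. The authors deposited raw read counts per gene symbol with no scaling. The submitters' processing notes name hg19 (GRCh37) as the build and list R (3.0.3), DESeq (1.14.0), HTSeq (0.5.4p5) and GSNAP; annotation, strand setting and read filters are not given in the sources used here.

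Columns were matched to groups by name; library numbers form 2 series, called A and B, and carry no replicate number. edgeR 4.0.16 in R 4.3.3 was run on all 16 libraries with TMM factors, 1 coefficient per group and 8 residual degrees of freedom. The filter on low counts (at least 10 counts in enough libraries, 15 in total) left 15520 of 23669 genes. The p-values were two-sided and adjusted over those genes (Benjamini-Hochberg, threshold 0.05). SE were derived from the F statistic. DESeq2 1.42.0, other scalings, filters and fits, and removal of each library were alternatives. The scripts were tested on simulated data. SE include the spread between libraries, while floors (3 counts) cover counting error only.

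p53 elements were searched in GRCh37 with GENCODE release 44 lifted to that build; the gene start was used where no main transcript is marked. The rule for names took all 29 targets, the altered genes and, of each other list, up to 4 called members with the smallest adjusted p per comparison; 1 further gene is not reported here. The members and lists were chosen with earlier results of these data known.

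Across genes, which are not independent, libraries of a group correlated with r between 0.991 and 0.997. Hypoxic libraries had TMM factors of 0.862 to 0.965, and normoxic libraries of 1.01 to 1.12.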

Additional observations from a re-analysis of the deposited data

Results flagged for a closer look

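For 5 of the 27 genes (18.5%) the hypoxia response differed between HIF1A-null and shNT cells by the interaction term of the edgeR fit. The share over all genes was near that, at 16.4%. On the log2 scale the differences were 1.82 for C12orf5, 1.81 for PLK3, 1.43 for AEN, 0.79 for GADD45A and -0.57 for GDF15. PLK3 changed by 2.71 in HIF1A-null and 0.90 in shNT, and GADD45A by 1.72 and 0.94. C12orf5 changed by -0.62 in HIF1A-null and -2.44 in shNT, and AEN by 0.23 and -1.19. GDF15 changed by 1.67 in HIF1A-null and 2.24 in shNT. Groups of 2 libraries do not allow a search for outlying libraries.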

How the results depend on the processing

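Over 130 called pairs of gene and comparison (EDA2R left out), none reversed its direction under any alternative run. DESeq2 kept all 130 calls, as did an added term for library series A and B, which was chosen after seeing the data. Calls lost were 1 with relative log expression factors, 14 with library totals, 3 with a mean of at least 5 CPM, 5 with no filter and 18 with only the groups compared. Of 540 combinations of a call and the removal of 1 library from its groups, 419 kept the call. Within each series the direction was that of the fit in 125 of 125 called pairs. The pairs were called on these same libraries, so that outcome was largely fixed in advance. With only the groups compared, and EDA2R counted, the genes called were 17 with hypoxia in shTIP60, 15 between shTIP60 and shNT in normoxia and 3 for the response difference of HIF1A-null. That response difference called 11 with the series term. The response difference of shCDK8, with 0 in edgeR, called 4 with no filter, 4 with DESeq2 and 6 with the series term. These counts have no share of all genes under the same setting beside them. They show only how the calls on the listed genes moved with the setting. Removing 1 library, EDA2R again counted, gave 7 to 9 genes with hypoxia in shTIP60, 5 to 9 with hypoxia in shCDK8, 11 to 16 between shCDK8 and shNT in normoxia and 4 to 8 between shTIP60 and shNT in normoxia; the lone library left was assumed to vary like the other groups. No paired analysis was possible by replicate, because the count columns carry no replicate number. Whether the library series of the added term mark the replicates is not given. Over genes, the deviations of library A correlated positively between groups in all 28 pairs of groups (0.0912 to 0.552, median 0.247). Libraries of a series thus shared some of their spread, and the main fit has no term for series. With 2 libraries a group, small changes were not detectable, and 1 line per target leaves clone effects inseparable from the target.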
